A study of Homo sapiens with 32 samples.

Results

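PIM1, PIM2 and PIM3, the PIM family of serine/threonine kinases, and the kinase SGK1 were followed in newly made and in total RNA of human B-lymphoblastoid cell lines. The genes were chosen by name, with earlier results of these data known. A gene was counted as measured where the array's gene table gave a transcript cluster (the set of probes assigned to 1 gene) to its symbol alone, and 3 of the 4 were: PIM1 (cluster 2905404), PIM2 (cluster 4007617) and SGK1 (cluster 2975014), with 1 cluster each. PIM3 is not analysed here. All 3 clusters were among the 14167 of 21788 that lay above background, and 9631 of those 14167 belonged to a single gene symbol.

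B-lymphoblastoid lines are B cells made to grow without limit by infection with Epstein-Barr virus, and each line descends from the blood of 1 donor. All 13 cultures had the same treatment, 200 µM of the nucleoside 4-thiouridine (4sU) for 2 h. RNA made meanwhile carried the label and was drawn out as nascent RNA. GM07029, GM10835 and GM12813 were each grown as 3 independent cultures, and GM07019, GM12812, GM12814 and GM12815 as a single culture, with nascent and total RNA of every culture on separate exon arrays. The GM12813 cultures were put on arrays again as technical duplicates, which gave 32 arrays in all, and the design asks how mRNA stability, read from nascent over total RNA, differs between lines. No culture without 4sU is used here.

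PIM kinases need no phosphorylation by another kinase to be active, so the amount of PIM protein is set largely by how much mRNA and protein the cell makes and how fast it destroys them. Cytokine receptors switch the genes on through JAK kinases and STAT factors, and NF-kB does so in activated B cells; the kinases then promote survival and growth by phosphorylating the death protein BAD, cell cycle inhibitors and regulators of translation. SGK1 belongs to the AGC kinases, close to AKT. It is induced by serum and by glucocorticoids, is activated by PDPK1 and by the mTORC2 complex, and is known for an mRNA and a protein that both turn over quickly. PIM1 and SGK1 are also frequent targets of somatic mutation in B cell lymphomas.

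Values are log2 intensities of a cluster. Levels of different genes are not set against each other, because probes differ in brightness. The nascent/total ratio of a culture is its nascent minus its total log2 value, minus that culture's median over the tested clusters, so that 0 is the median cluster and 1 is a 2-fold higher share of new RNA. Background, 6.40, was the 95th percentile of 216 olfactory receptor clusters, genes that B cells do not use, by mean over arrays of both fractions. The same cutoff was set against each fraction, although array medians were 6.74 to 6.95 in total and 7.58 to 7.92 in nascent RNA. Above or below background thus refers to this joint cutoff, and values near it are uncertain in either fraction. Of 11 B cell markers on the array, 10 had mean total RNA above this cutoff. The same held for 3 of 13 genes that mark T or NK cells, 2 of 9 that mark monocytes or granulocytes and 5 of 11 of fibroblasts or epithelium. The B cell marker below it was BANK1 (5.69), the T cell markers CD3D (3.97), CD3E (5.12) and CD3G (4.19) were below it, and the highest of the other lists were LCK (9.88), which B cell lines also express, and KRT8 (10.4). The number of arrays limits the precision of all values.

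PIM1 differed between lines in total and in nascent RNA. By line, its total RNA ran from 7.73 in GM07029 through a median of 8.75 to 10.05 in GM12812, and its nascent RNA from 8.77 through 9.82 to 10.91 in the same lines. The lowest and the highest line were thus the same in both fractions, and the SD over lines (0.69 in total RNA) was larger than that of 95.2% of the tested clusters. In the middle of the order in total RNA lay GM10835, GM07019, GM12813, GM12814 and GM12815. Each difference between neighbours among them was at most 0.28 and did not pass (adjusted p from 0.384 to 0.957, limma over 13 cultures, with lines of 1 culture assumed to vary like the others). In bulk RNA, fewer cells that express a gene and less RNA per cell cannot be told apart.

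The cultures of the 3 replicated lines lay close together. In GM07029, PIM1 total RNA was 7.82, 7.51 and 7.85 in replicates 1, 2 and 3, in GM10835 it was 8.62, 8.57 and 8.44, and in GM12813 it was 8.77, 8.75 and 8.73. GM07029 lay below both other lines with no overlap. Nascent RNA was 8.97, 8.73 and 8.60 in GM07029, 10.32, 10.31 and 10.25 in GM10835, and 9.76, 9.85 and 9.85 in GM12813. Here the 3 lines were fully apart, with GM10835 highest. The lines differed in total RNA (range 1.02, adjusted p = 6.48e-05) and in nascent RNA (range 1.53, adjusted p = 5.68e-07, limma's moderated F test with Benjamini-Hochberg adjustment), as did 56.3% and 56.7% of all clusters.

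GM10835 and GM12813 differed in nascent PIM1 RNA, and no difference in total RNA passed. PIM1 was called in 2 of the 3 pairs of lines in total RNA and in 3 of 3 in nascent RNA. Of all clusters, 47.9% were called in total RNA for GM10835 against GM07029, 24.5% for GM12813 against GM07029 and 37.9% for GM12813 against GM10835, and 55.3%, 18.3% and 43.4% in nascent RNA. GM12813 had 0.48 log2 units less nascent PIM1 RNA than GM10835 (95% interval -0.68 to -0.28, adjusted p = 0.00140). Its total RNA was 0.21 higher (interval -0.04 to 0.45), which did not pass (adjusted p = 0.182). The ratio shows both at once. It was 0.34, 0.45 and 0.04 in the GM07029 cultures, 0.89, 0.89 and 1.00 in GM10835, and 0.25, 0.33 and 0.24 in GM12813. Every GM10835 culture was above every culture of the other lines, and the lines differed (range 0.65, adjusted p = 0.00548), as did 25.4% of clusters. GM10835 was 1.57-fold above GM07029 and 1.57-fold above GM12813 (adjusted p = 0.00923 and 0.00426, pairs in which 13.9% and 23.1% of clusters were called), while GM12813 and GM07029 were within 0.00 of each other (interval -0.28 to 0.27, adjusted p = 0.987, with 5.8% of clusters called).

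Over all 7 lines, the PIM1 ratio averaged 0.25 ± 0.33 (SD), with a lowest value of -0.03 in GM07019, a median of 0.27 and a highest value of 0.93 in GM10835. The ratio was above 0 in 5 of 7 lines and did not pass the test against the median cluster (adjusted p = 0.0700, limma), a test that 63.5% of all clusters passed, 31.7% as higher. The PIM1 ratio exceeded that of 68.3% of clusters. The call depends on the processing: it passed after quantile normalization (0.27, adjusted p = 0.0422) and once its dependence on signal was taken out by loess (0.30, adjusted p = 0.0244), among others.

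**Figure D1:**
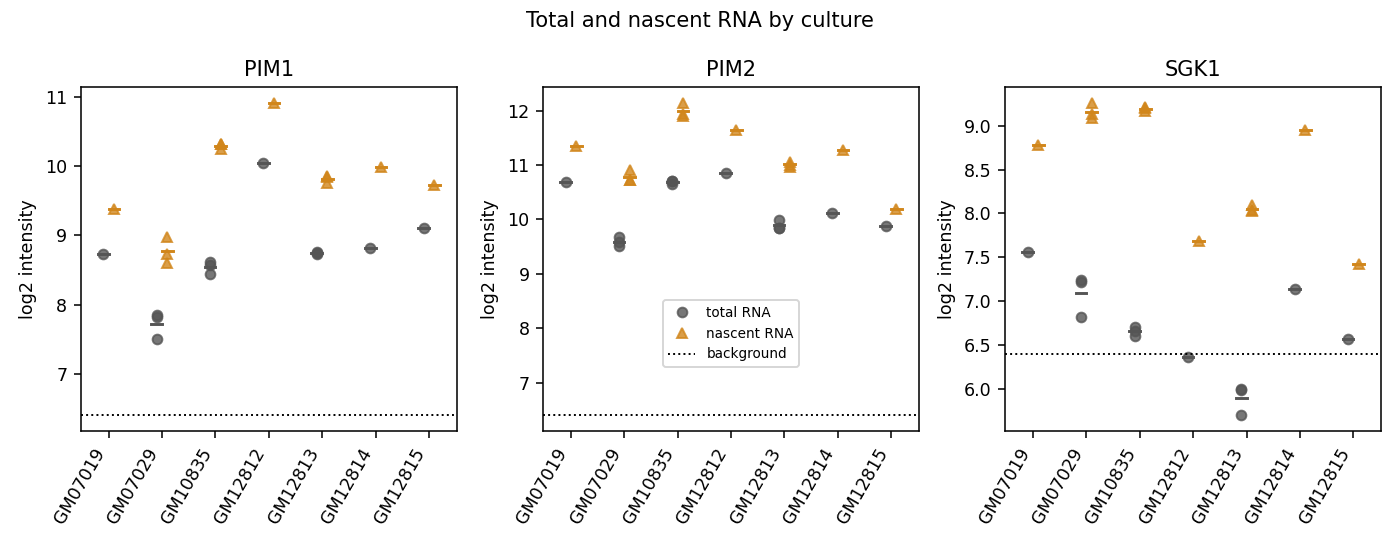
Total RNA (circles) and nascent RNA (triangles) of PIM1, PIM2 and SGK1 as log2 intensity in each culture of the 7 lines, with line means as short bars and the background of 6.40 as a dotted line. PIM1 was lowest in GM07029 and highest in GM12812 in both fractions, and SGK1 total RNA lay below background in GM12813 and GM12812.

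PIM2, the family member best known in B cells and plasma cells, differed between lines in both fractions. Its total RNA ran from 9.59 in GM07029 through a median of 10.12 to 10.86 in GM12812, and its nascent RNA from 10.20 in GM12815 through 11.27 to 11.99 in GM10835. GM10835, GM07019 and GM12812 formed the upper end in total RNA and did not differ from their neighbours there (adjusted p = 0.985 and 0.758), whereas the step of 0.57 from GM12814 up to GM10835 passed (adjusted p = 0.00670). At the lower end, GM07029, GM12815, GM12813 and GM12814 did not differ from their neighbours (adjusted p from 0.125 to 0.960).

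Between the replicated lines, PIM2 total RNA was 9.50, 9.58 and 9.67 in the GM07029 cultures, 10.71, 10.70 and 10.66 in GM10835, and 9.98, 9.84 and 9.84 in GM12813. Nascent RNA was 10.90, 10.72 and 10.73 in GM07029, 12.14, 11.93 and 11.90 in GM10835, and 10.97 to 11.06 in GM12813. The 3 lines did not overlap in either fraction, with GM10835 highest and GM07029 lowest in both. GM10835 exceeded GM07029 by 1.10 in total RNA (2.15-fold, adjusted p = 7.83e-06) and by 1.20 in nascent RNA (2.30-fold, adjusted p = 3.54e-07). GM12813 exceeded GM07029 by 0.30 in total RNA (adjusted p = 0.0381), while its 0.22 in nascent RNA did not pass (adjusted p = 0.0614).

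The PIM2 ratio overlapped between these lines. Its culture values were 0.59, 0.37 and 0.34 in GM07029, 0.61, 0.38 and 0.42 in GM10835, and 0.24, 0.37 and 0.34 in GM12813. The range of line means was 0.15 and did not pass (adjusted p = 0.543). For GM10835 against GM07029 the difference was 0.03, with an interval of -0.22 to 0.29. With the dependence on signal taken out, the range was 0.46 and passed (adjusted p = 0.0214). Over 7 lines the mean ratio was 0.16 ± 0.29 (SD), from -0.32 in GM12815 through 0.26 to 0.47 in GM10835. It was above 0 in 4 of 7 lines and did not pass (adjusted p = 0.194), but it passed with that dependence taken out (0.46, adjusted p = 0.00413) and without GM12815 (0.24, adjusted p = 0.0465).

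The window around the PIM2 start, from 250 bases before to 50 after it (RefSeq, GRCh38.p14, chromosome X, minus strand), held the octamer ATTTGCAT, which the widely expressed POU2F1 and the B cell factor POU2F2 recognise, once on each strand, 160 and 123 bases before the start. Of 35116 such windows, 1.77% held an octamer on either strand, and none of the SGK1 windows did. The octamer was picked after this window had been read, and the other motifs searched are named with SGK1. The matches, in capitals, lie at chrX:48919166-48919195 and chrX:48919129-48919158, and are shown because they set the PIM2 window apart from the SGK1 windows.

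PIM2 octamer, upstream: accgagcgtgtATTTGCATaagggggccct

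PIM2 octamer, downstream: atgagggtggtATGCAAATaagaactggct

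SGK1 had the highest share of new RNA of the 3 kinases. Its mean ratio was 0.94 ± 0.54 (SD, n = 7 lines), a 1.91-fold higher share than the median cluster, and it was above 0 in 7 of 7 lines (adjusted p = 0.000422, limma). The lowest value was 0.21 in GM12815, the median 0.93 and the highest 1.71 in GM10835. This mean exceeded that of 89.9% of clusters, and SGK1 passed under each of the alternatives tried. The SD between lines was larger than that of 93.1% of clusters. SGK1 total RNA was faint, however. It lay below the background of 6.40 in GM12813 (5.90) and in GM12812 (6.37), and ran through a median of 6.66 to 7.56 in GM07019, so the size of the ratio is less certain than for PIM1 and PIM2. Nascent RNA was above background in every line, from 7.43 in GM12815 through 8.78 to 9.20 in GM10835.

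Among the replicated lines, SGK1 was lowest in GM12813 in both fractions. Total RNA was 7.22, 6.82 and 7.24 in the GM07029 cultures, 6.7, 6.6 and 6.66 in GM10835, and 5.99, 6.00 and 5.70 in GM12813. Nascent RNA was 9.26, 9.13 and 9.08 in GM07029, 9.20, 9.17 and 9.21 in GM10835, and 8.02, 8.04 and 8.10 in GM12813. Total RNA thus set all 3 lines apart, whereas nascent RNA set only GM12813 apart from the others. Total RNA of GM12813 was below that of GM07029 (adjusted p = 0.000264), and no fold is given because GM12813 was under background. Nascent RNA was 2.15-fold below (adjusted p = 3.64e-06).

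Nascent SGK1 RNA of GM10835 was 0.04 log2 units above that of GM07029 (interval -0.13 to 0.20), which did not pass (adjusted p = 0.699). Total SGK1 RNA differed by -0.44, being lower in GM10835 (interval -0.74 to -0.14, adjusted p = 0.0217). The ratio was 1.23, 1.54 and 1.13 in GM07029, 1.68, 1.72 and 1.73 in GM10835, and 1.29, 1.26 and 1.52 in GM12813. GM10835 lay above the other cultures in each case, but the range of line means (0.41) did not pass (adjusted p = 0.102). It passed without replicate 2 of GM07029 (0.53, adjusted p = 0.0418) and over all 7 lines (range 1.5, adjusted p = 0.00230).

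**Figure D2:**
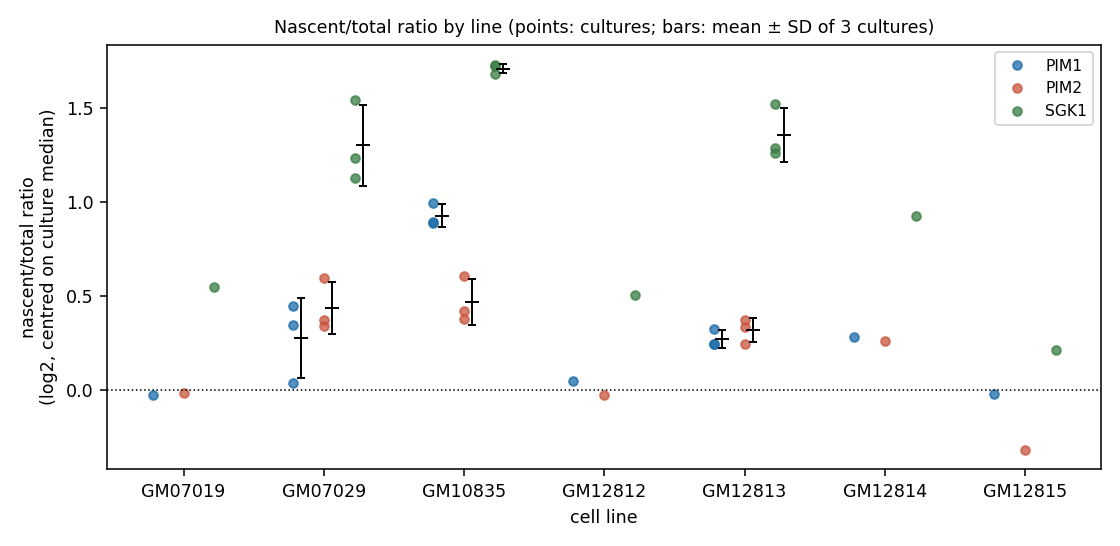
Nascent/total ratio (log2, dotted line at 0 for the median cluster) of the 3 kinases in each culture, with mean ± SD beside lines of 3 cultures. SGK1 was the highest of the 3 in each line, and GM10835 had the highest line mean for each kinase.

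SGK1 has several start sites, and RefSeq (GRCh38.p14, chromosome 6, minus strand) gave 3 windows with 38.0%, 43.0% and 73.3% G and C. A single cluster carries the SGK1 symbol, and which of these transcripts its probes cover was not checked. Each window held the TATA box letters TATAAA on one strand, against 11.5% of all windows, while the PIM2 window held none. The match in the window with 73.3% G and C is shown because it lies 27 bases before a start, and is at chr6:134174876-134174905. There TATAAA reads on the strand opposite to the gene. In the gene's direction it was found only in the window with 43.0%, 15 bases before the start.

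SGK1 TATA letters: ggcggtgcctttTTTATAaggccgagcgcg

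The remaining motifs were searched on both strands of the same windows: the STAT site TTCNNNGAA (in 7.66% of all windows), the cyclic AMP element TGACGTCA (1.85%), the glucocorticoid element (1 of 35116 windows) and the NF-kB consensus (5.91%). None matched in the PIM2 or SGK1 windows, which says only that these letters are not in these 300 bases. CCAAT matched 2 times in the PIM2 window and in 34.6% of all windows, and the GC box GGGCGG, a site that SP1-like factors recognise, in the PIM2 window, 1 SGK1 window and 45.0% of all.

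Set against each other by ratio, SGK1 exceeded PIM1 by 0.69 ± 0.30 (SD, n = 7 lines) and PIM2 by 0.78 ± 0.28, each in 7 of 7 lines. The exact sign-flip permutation test gave p = 0.0156 for both, the smallest that 7 lines allow, and adjusted p = 0.0234 over the 3 pairs compared. Neither passed with the dependence on signal taken out (differences of 0.54 and 0.37, adjusted p = 0.0703 for both). PIM1 and PIM2 differed by 0.09 ± 0.21, PIM1 being higher in 4 of 7 lines (exact permutation test, adjusted p = 0.344), and the sign turned with it taken out (-0.16, adjusted p = 0.0781).

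Lines with 3 cultures and lines with 1 culture differed in these ratios, a division the labels give and that was looked at after the values were seen. SGK1 ratios were 1.30 to 1.71 in the 3 replicated lines and 0.21 to 0.93 in the other 4. PIM2 ratios were 0.32 to 0.47 and -0.32 to 0.26 in the same order. Neither gene overlapped between these sets, which held in this direction for 10.6% of all clusters and in the opposite one for 9.41%. PIM1 overlapped (0.27 to 0.93 against -0.03 to 0.28). The SGK1 excess of 0.91 in the replicated lines was larger than that of 99.5% of clusters, whose median was -0.01. Within the replicated lines alone, the mean ratio was 1.46 for SGK1 (adjusted p = 0.000475), 0.49 for PIM1 (adjusted p = 0.0230) and 0.41 for PIM2 (adjusted p = 0.0107). Within the other 4 lines it was 0.55 (adjusted p = 0.00900), 0.07 (adjusted p = 0.589) and -0.026 (adjusted p = 0.864, all by limma). The sets were formed after the ratios were seen, so these p-values do not count as tests of either set. Whether the lines were handled at different times is not stated, and its part in the result was not tested.

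**Figure D3:**
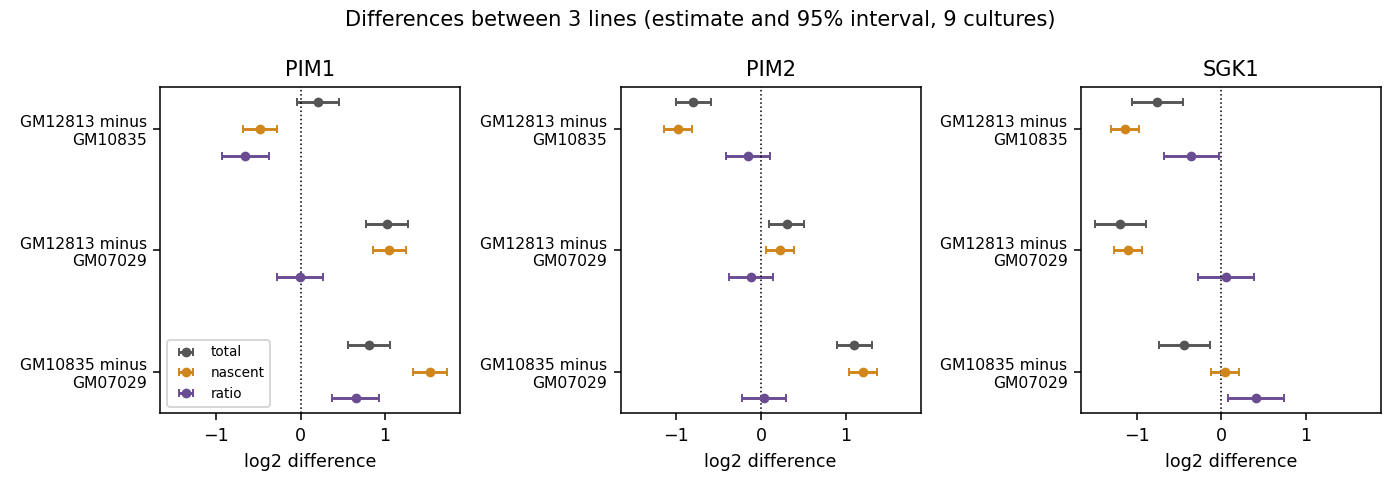
Differences between the 3 replicated lines for PIM1, PIM2 and SGK1, in log2 units, with 95% intervals from limma over 9 cultures. For PIM1, GM12813 was lower than GM10835 in nascent RNA while the interval in total RNA spanned 0, and for SGK1, GM10835 and GM07029 differed in total RNA but were within 0.04 in nascent RNA.

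Whether lines that made more of a transcript also held more of it was asked for each kinase over the 7 lines, 1 value per line, where both fractions share the culture. For PIM1, Pearson's r was 0.84 (exact permutation p = 0.0361, adjusted p = 0.0542 over 3 relations) and Spearman's rho 0.54 (exact permutation p = 0.236, adjusted p = 0.267). Without GM12812 and GM07029, the 2 lines farthest from the median nascent value, r was -0.42, so the PIM1 relation rests on those lines. PIM2 had r = 0.80 (exact permutation p = 0.0290, adjusted p = 0.0542) and rho = 0.86 (exact permutation p = 0.0238, adjusted p = 0.0714), and r = 0.96 without GM12815 and GM10835. SGK1 had r = 0.60 (exact permutation p = 0.168) and rho = 0.50 (exact permutation p = 0.267), with r = 0.64 without GM12815 and GM12812. No relation passed after adjustment. With each array centred on its median, PIM1 (r = 0.92, adjusted p = 0.0321 by exact permutation) and PIM2 (r = 0.83, adjusted p = 0.0405 by exact permutation) did.

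**Figure D4:**
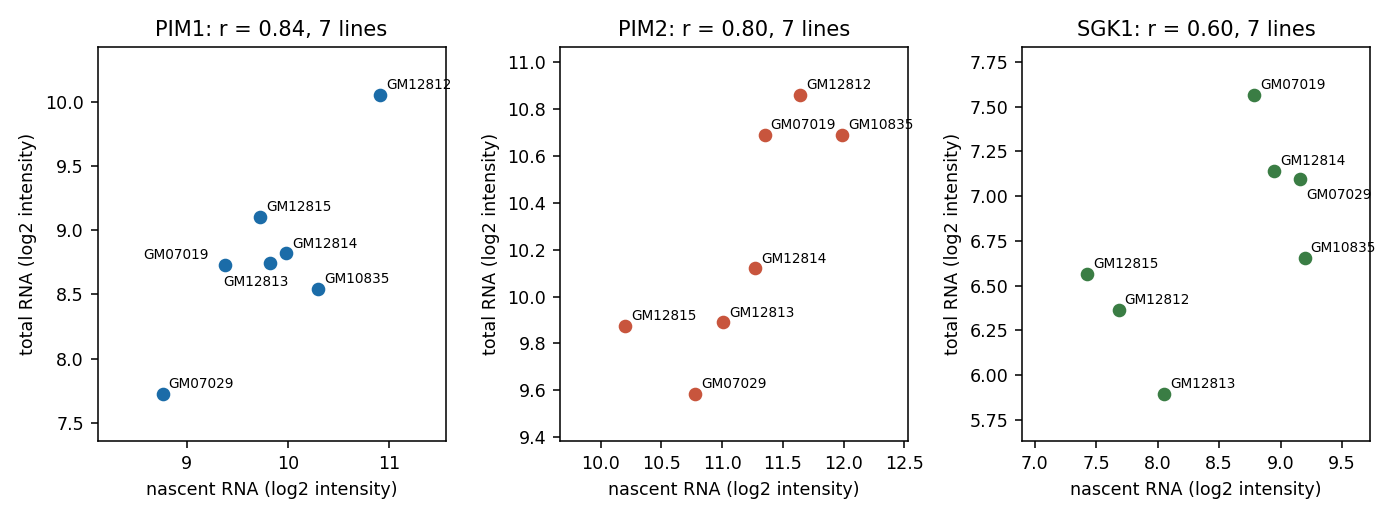
Total against nascent RNA (log2 intensity, line means) of PIM1, PIM2 and SGK1 in the 7 lines. PIM2 lines lay along a rising diagonal, the PIM1 relation was carried by GM07029 and GM12812, and SGK1 total RNA differed between lines of like nascent RNA such as GM10835 and GM07029.

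Measurement error could be read only from GM12813, the line with technical duplicates, where SGK1 total RNA lay below background. The SGK1 duplicates thus describe faint total signal, and the 4 lines of a single culture give no estimate of error. Between technical duplicates of GM12813, the SD of the ratio was 0.05 for PIM1, 0.09 for PIM2 and 0.08 for SGK1, against a median of 0.17 over all clusters. Between cultures of a line it was 0.13, 0.11 and 0.15 in the same order (median 0.18). Between lines it was 0.33, 0.29 and 0.54 (median 0.26). In nascent RNA, the SD between lines was 12.4 times that between cultures for SGK1, and 5.91 and 5.93 times for PIM1 and PIM2, against a median of 2.31 times over all clusters. The SGK1 value rests on an SD between cultures (0.06) below that between its technical duplicates (0.09). In total RNA SGK1 had the smallest of the 3 values, 3.22 times, against 5.66 for PIM1 and 7.14 for PIM2. The PIM2 value likewise rests on an SD between cultures (0.07) below that between its technical duplicates (0.11). The largest gap between 2 arrays of one culture was 0.27, for PIM2 total RNA.

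Likeness across lines was described by Pearson's r over the 7 lines. The ratio of PIM2 had r = 0.96 with that of SGK1 over 7 lines, PIM1 had r = 0.87 with SGK1 and r = 0.77 with PIM2. For comparison, 0.367%, 4.97% and 11.6% of 9541 genes had a higher r with the first gene of each pair. In total RNA the same pairs had r = 0.11, -0.38 and 0.60, with 55.1%, 72.2% and 7.20% of genes higher. In nascent RNA they had r = 0.44, -0.40 and 0.56, with 52.7%, 81.8% and 25.7% higher. For PIM1 and PIM2, fewer genes had a higher r in total RNA (7.20%) than in ratio (11.6%), although r itself was lower (0.60 against 0.77). This difference was not tested. These are descriptions over 7 lines that share arrays for all genes. The ratios of PIM2 and SGK1 were both higher in the 3 replicated lines than in the other 4, without overlap. The part of this division in their r was not tested. The genes whose ratio was most like that of PIM1 were the linker histone H1-3 (r = 0.998), SDR42E1 (0.99) and the MAP kinase phosphatase DUSP7 (0.99). For PIM2 they were the ferritin light chain FTL (0.99), KCTD2 (0.98) and PRR14 (0.98), and for SGK1 the palmitoyltransferase ZDHHC7 (0.999), TXNDC11 (0.99) and the fucosyltransferase POFUT1 (0.99). In total RNA, CHST10 (r = 0.98), TACR2 (0.97) and GFOD3P (0.95) were nearest to PIM1, SPRYD4 (0.99), TUT1 (0.98) and ANKRD27 (0.98) to PIM2, and the SRC family kinase FYN (0.96), TUBA8 (0.94) and NKAPP1 (0.94) to SGK1.

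The genes around the 3 kinases were taken from 6 lists, some of whose genes stand in more than 1 list. These lists were chosen with earlier results of these data known, so their counts are descriptions and not tests. Of the 21 PIM substrates and partners listed, 16 were tested, and 12 of these had a higher ratio than the median cluster and 1 a lower one, with a list median of 0.55, against 31.7% higher and 31.7% lower of all clusters and a median of -0.01. The cell cycle inhibitor CDKN1B (p27) stood at 2.27 ± 0.25 (SD, n = 7 lines), the chemokine receptor CXCR4 at 2.14 ± 0.26 and the phosphatase CDC25A at 1.52 ± 0.27. The translation repressor EIF4EBP1 was the lower one (-0.48), named after its value was seen, as are the further called genes of short counts below. In total RNA, 12 of the 16 differed between the 3 replicated lines, against 56.3% of all clusters, the widest being the chaperone HSP90AA1 (11.61 in GM07029, 12.00 in GM10835 and 10.43 in GM12813) and CXCR4 (6.99, 8.43 and 7.93).

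Of 13 tested JAK-STAT genes and cytokine receptors, 3 were higher and 5 lower (median 0.14), against 31.7% of all clusters each way. STAT3 (-1.09 ± 0.09), STAT6 (-0.98 ± 0.27) and the kinase JAK3 (-0.94 ± 0.28) had the largest ratios in absolute size. The kinases JAK1 (-0.70) and TYK2 (-0.65) were also lower. The feedback inhibitor SOCS3 (0.47), JAK2 (0.42) and the receptor IL4R (0.33) were higher. Total RNA differed most for the receptor chain IL6ST (10.07, 8.85 and 10.09 in GM07029, GM10835 and GM12813) and for JAK1 (10.26, 10.87 and 10.60).

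Of 14 SGK1 activators and targets, 4 were higher and 4 lower (median 0.14), shares near the 31.7% of all clusters each way. The ubiquitin ligase NEDD4 (-1.16 ± 0.36) and NDRG1 (-0.98 ± 0.34), an SGK1 substrate, were lower, with mean nascent RNA of NEDD4 (6.25) under background. SYVN1, a ligase of the endoplasmic reticulum that marks SGK1 for destruction, was higher (0.97 ± 0.32). WNK1 (0.88), MTOR (0.47) and UBE2J2 (0.29) were the other higher ones, and MAPKAP1 (-0.86) and MLST8 (-0.39), both subunits of mTORC2, the other lower ones. In total RNA, the ligase STUB1 stood at 7.74 in GM07029, 8.94 in GM10835 and 7.92 in GM12813. NEDD4 stood at 7.28, 5.38 and 6.90 in these lines, with GM10835 below background, so its difference there is a bound. Of 21 AGC kinases related to SGK1, 9 were higher and 8 lower (median 0.14). CDC42BPB, counted as higher, had mean total RNA (6.01) under background and passed the filter only through nascent RNA. RPS6KA1 stood at 1.47 ± 0.36, PRKCD at 1.19 ± 0.31 and AKT2 at -1.04 ± 0.24. In total RNA, the protein kinase A subunit PRKACB stood at 8.60, 7.08 and 8.10 in the same lines. CDC42BPA stood at 8.83, 6.05 and 8.35, with GM10835 below background, so its difference there is a bound too.

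Glucocorticoid-induced genes had 8 higher and 0 lower members of 12 (median 0.46, limma), against 31.7% of all clusters each way. Of these genes, 0 were lower at an unadjusted p under 0.05 (limma). CXCR4, SESN1 (1.77 ± 0.28, with mean total RNA of 5.21 under background) and TXNIP (1.00 ± 0.24), an inhibitor of glucose uptake, led. PER1 and KLF9, also counted as higher, had mean total RNA (6.38 and 6.37) under background too. They and SESN1 passed the filter only through nascent RNA, so the count of 8 includes genes whose ratio is uncertain. SESN1 total RNA was not above background in any of the 3 replicated lines, so no difference between them is given. Inducible kinases and pseudokinases had 11 higher and 1 lower of 17 (median 0.40), against the same 31.7% of all clusters each way. The lower one was RIPK2 (-0.50). The splicing kinase CLK4 (1.06 ± 0.29), PLK3 (0.97 ± 0.29) and MAP2K3 (0.94 ± 0.31) had the largest ratios of this list. GEM, also counted as higher, had mean total RNA (6.24) under background and passed the filter only through nascent RNA. The pseudokinases TRIB1 (8.41, 9.94 and 8.92) and TRIB3 (7.53, 8.22 and 7.84) differed most in total RNA, both with GM10835 highest. The counts of higher and lower genes shift without centring, where the median cluster stands at 0.77. Of all 14167 clusters, 11639 were higher and 762 lower in that setting. PIM substrates then counted 16 higher and 0 lower, JAK-STAT genes 8 and 1, SGK1 activators and targets 11 and 1, AGC kinases 17 and 1, glucocorticoid-induced genes 12 and 0, and inducible kinases 17 and 0.

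**Figure D5:**
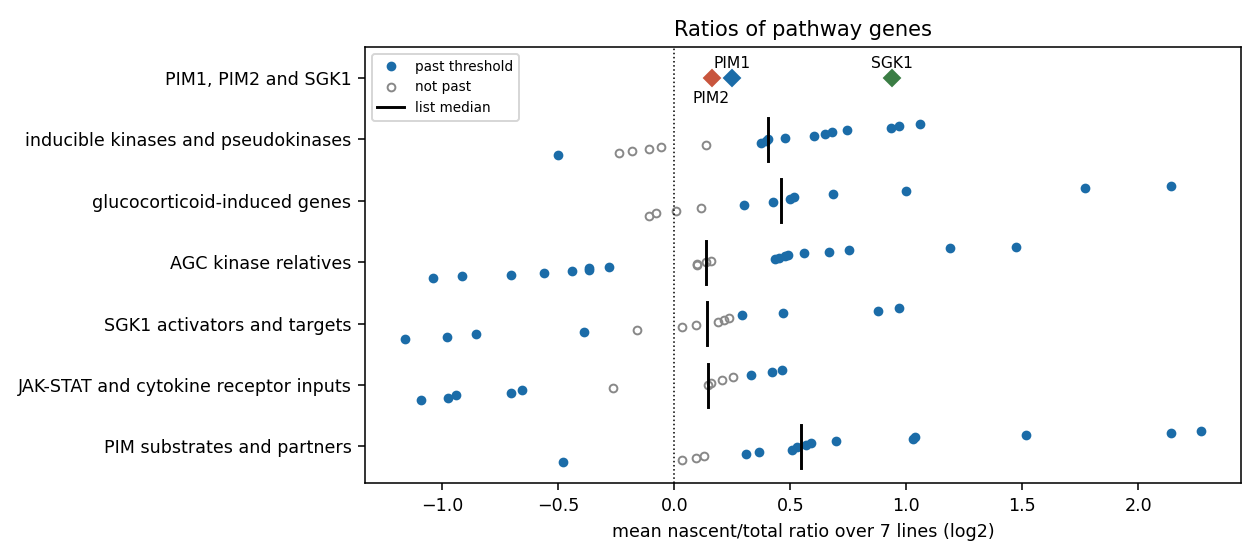
Mean nascent/total ratio over 7 lines (log2, dotted line at 0 for the median cluster) of the genes of 6 lists, filled where past the threshold, with list medians as bars and PIM1, PIM2 and SGK1 as diamonds. SGK1 at 0.94 lay above all 6 list medians, PIM1 at 0.25 and PIM2 at 0.16 below the medians of the PIM substrate, glucocorticoid and inducible kinase lists.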

How the data were processed

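Nascent and total RNA of 13 cultures of 7 lines were measured on 32 human exon arrays. The authors deposited 1 log2 value per transcript cluster and array, made with Affymetrix Power Tools on build hg18 per the submitters' processing notes; how they were normalized is not given in the sources used here. Medians of the arrays were 6.74 to 6.95 in total and 7.58 to 7.92 in nascent RNA, so the fractions are comparable only after centring, and an overall difference in stability between lines cannot be seen. Of 21788 clusters, 14405 had 1 symbol, 2365 several and 5018 none. For 14377 of those with 1 symbol the current symbol was taken from RefSeq, whether or not it had changed. Clusters were tested where the mean over arrays of both fractions was above background, so some passed through nascent RNA alone.

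Technical duplicates were averaged. Nascent and total RNA were paired within each culture, as the design text gives it. Ratios of 7 lines, 1 value per line, were tested against 0, and 9 cultures of 3 lines with a moderated F test and pairwise contrasts, in limma 3.58.1 (R 4.3.3) with Benjamini-Hochberg adjustment over all 14167 clusters at 0.05. Exact permutation tests ran in Python 3.11.15. The limma steps were tested on simulated data. With PIM3 left out, 3 pairs and 3 relations were tested in place of the 6 pairs and 4 relations planned. The genes and lists were chosen with earlier results of these data known. From each list the 3 genes with the largest called ratio and the 2 with the largest called range in total RNA were named, and for each kinase the 3 genes with the highest r in ratio and in total RNA. Alternatives covered centring, normalization, filters, blocks, duplicates and left-out lines or cultures. The start window of PIM1 is not reported here.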

Additional observations from a re-analysis of the deposited data

Results flagged for a closer look

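The PIM1 ratio of GM10835 (0.93) lay apart from the other 6 lines, the next being 0.28. Its gap to the nearest line was 0.678 of the whole range, above Dixon's limit of 0.568 for 7 values. A single group would pass this limit by chance about 1 time in 20. As 9 groups of line values were looked at, which share genes and cultures, the chance of a pass among them is larger.

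The PIM1 nascent/total ratio differed between GM07029, GM10835 and GM12813 (adjusted p = 0.00548, limma's moderated F test), with means of 0.28 ± 0.21, 0.93 ± 0.06 and 0.27 ± 0.05 (SD, n = 3 cultures).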

How the results depend on the processing

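The ranges between lines of PIM1, PIM2 and SGK1 in total and nascent RNA and of PIM1 in ratio, which carry no sign, passed under each alternative run, as did the SGK1 ratio over 7 lines, always above 0. The PIM1 ratio over 7 lines passed without centring (1.02), after quantile normalization (0.27), with the trend with signal removed (0.30), with both fractions above background (0.29), over 13 cultures (0.28) and in the 3 replicated lines alone (0.49). It did not pass when 1 line was left out (0.14 to 0.30, the lowest without GM10835, adjusted p = 0.172, limma). Nor did it pass without pairing nascent and total RNA (0.10, adjusted p = 0.811, limma). That setting lowered all 3 kinases alike (PIM1 from 0.25 to 0.10, PIM2 from 0.16 to 0.014, SGK1 from 0.94 to 0.79). Its zero point thus moved too, and the effect of pairing alone cannot be read from it. The PIM2 ratio passed without centring (0.93), with the trend removed (0.46) and in the replicated lines (0.41), ranged from 0.11 to 0.24 when 1 line was left out, and turned to -0.026 in the 4 other lines. The settings with the replicated lines alone and with the other 4 lines were chosen after seeing the data. A pass of PIM1 or PIM2 in them is therefore no support. The range between lines passed for PIM2 with the trend removed (0.46) and over 7 lines (0.79), and for SGK1 over 7 lines (1.5), and was 0.35 to 0.53 for SGK1 when 1 culture was left out. With the trend removed, SGK1 minus PIM1 was 0.54 and SGK1 minus PIM2 0.37, neither passing, and PIM1 minus PIM2 was -0.16. With centred arrays, r was 0.92 for PIM1 and 0.83 for PIM2. The cause was not tested.

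Same-numbered cultures of different lines did not deviate together in ratio (correlations of -0.43 to 0.20, 2 of 9 above 0.1). In nascent RNA the correlations were -0.46 to 0.39, 3 of 9 above 0.1, and in total RNA -0.43 to 0.11, 2 of 9. Cultures of different lines and numbers reached 0.38 in ratio (9 of 18 above 0.1), 0.52 in nascent and 0.46 in total RNA. What these share was not tested. The replicate number as a block changed no call of the 3 kinases (PIM1 ratio range 0.65, adjusted p = 0.0164) and moved the clusters called in ratio from 3595 to 2458. Without pairing nascent and total RNA of a culture, where the zero point moved as well, the SGK1 ratio was 0.79 (adjusted p = 0.0232, limma).

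Clusters called in ratio between the 3 lines numbered 2012 without a filter, 2142 with first arrays only, 5622 over 7 lines and 1808 to 5065 with 1 culture left out. Over 7 lines, 11639 were higher and 762 lower without centring. In the setting without pairing, whose zero point also moved, 2846 were higher and 4646 lower. A second cluster per gene was not run, as each kinase has 1. SGK1 total RNA near background limits its ratio.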
